A study of Mus musculus with 311 samples.

Results

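Gfer and Decr2 are 2 genes of mouse chromosome 17 whose liver transcript levels split the same animals into a low group and a higher one. They are 2 of 11387 genes measured here, and 2 of 521 on chromosome 17. They were chosen for this split, so the shape of their values, their shared low group and their relation to other chromosome 17 genes are described without a test. The arrays hold 1 probe for Gfer and 1 for Decr2, so agreement between probes of a gene could not be examined.

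Liver total RNA of 311 F2 mice was measured on 2-colour arrays. The mice descend from the parental strains C57BL/6J and C3H/HeJ, both carrying an ApoE null background, which removes the lipoprotein ligand apolipoprotein E and is used as a model of raised blood cholesterol and atherosclerosis. Females and males were included, and all ate a high fat "Western" diet between 8 and 24 weeks of age. Every animal carried the ApoE null background and the diet, so neither has a comparison here, and the sex and genotype of single animals were not used as labels. RNA of each animal (Cy3) was hybridised against a pool of equal portions of all samples (Cy5). Each animal is 1 array with no repeat, and all 311 arrays form 1 group. The labels speak of more F2 mice than the 311 analysed here. Values are log10 ratios of animal over pool, so 0 is the level of the pool, and a ratio cannot compare the amounts of 2 transcripts. Array SDs lay between 0.0658 and 0.206 log10, and 0.745% of values were missing.

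Gfer encodes a sulfhydryl oxidase, also known as augmenter of liver regeneration. In the mitochondrial intermembrane space it reoxidises the import receptor CHCHD4 (MIA40 in yeast), which forms disulfide bonds in small imported proteins such as the TIM chaperones, and it passes electrons to cytochrome c. Decr2 encodes the peroxisomal dienoyl-CoA reductase, an auxiliary enzyme that removes double bonds so that unsaturated fatty acids can enter beta-oxidation. The liver oxidises fatty acids in both peroxisomes and mitochondria, and the products of these genes work in different organelles.

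The sequences around the RefSeq transcription starts are shown because both genes change together in the same animals. Each holds 250 bases before and 50 bases after the start on the minus strand of build GRCm38.p6, at chr17:24696107-24696406 for Gfer and chr17:26090115-26090414 for Decr2. Capitals mark GGGCGG or its reverse complement CCGCCC.

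Gfer: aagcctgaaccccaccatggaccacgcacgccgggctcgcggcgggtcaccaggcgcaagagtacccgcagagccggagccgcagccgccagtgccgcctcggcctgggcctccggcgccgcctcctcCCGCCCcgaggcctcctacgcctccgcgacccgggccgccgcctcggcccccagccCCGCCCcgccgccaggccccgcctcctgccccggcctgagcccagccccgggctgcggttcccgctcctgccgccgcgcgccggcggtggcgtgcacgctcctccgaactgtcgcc

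Decr2: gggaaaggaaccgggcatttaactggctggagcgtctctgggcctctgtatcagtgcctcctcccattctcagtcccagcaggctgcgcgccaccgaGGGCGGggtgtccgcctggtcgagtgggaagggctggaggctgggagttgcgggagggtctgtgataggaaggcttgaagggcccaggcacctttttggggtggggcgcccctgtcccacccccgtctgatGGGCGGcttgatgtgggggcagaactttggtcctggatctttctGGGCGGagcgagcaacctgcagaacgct

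The Gfer window had a GC content of 80.3% and 43 CpG dinucleotides, and the Decr2 window 64.3% and 15. The median over 32544 windows of the same length was 53% GC and 7 CpG. GGGCGG, read on both strands, matched 2 times in Gfer and 3 times in Decr2, and 35.9% of all windows hold it. Each of 4 other motifs, read on both strands, had 0 matches in either window. CCAAT stands in 37.4% of all windows, the letters TATAAA in 13.6%, the palindrome CACGTG in 7.17% and the hexamer AGGTCA in 16.2%. The matches are letters in a window and not evidence of a binding site. No protein or probe sequence was used here.

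Gfer was low in 81 of 311 arrays, 26.0% (exact 95% interval 21.3 to 31.3). In the low mode its log10 ratio ran from -0.364 through a median of -0.238 to -0.106, and in the other 230 arrays from -0.0726 through 0.0764 to 0.318. The 2 modes, defined by a mixture of 2 normals with a common SD of 0.0838, had centres at -0.241 and 0.0943, a distance of 0.335 log10 or 2.16-fold. The array just inside the low mode lay at -0.106 and the one just outside at -0.0726, a gap of 1.08-fold.

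Decr2 was low in 78 of 310 arrays, 25.2% (exact 95% interval 20.4 to 30.4). Its log10 ratio ran from -0.543 through -0.324 to -0.147 in the low mode and from -0.131 through 0.0779 to 0.349 in the other 232 arrays. The centres were -0.325 and 0.0976, 0.423 log10 or 2.65-fold apart, with a common SD of 0.1004. The arrays on either side of the edge, at -0.147 and -0.131, were 1.04-fold apart, so the Decr2 modes touch. The distance was wider for Decr2 than for Gfer.

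The higher mode of each gene was better described by 2 levels than by 1. A mixture of 3 normals lowered the Bayesian information criterion by 48.1 for Gfer and 14.0 for Decr2 against 2 normals. This 3-level description was added after the values were seen. For Gfer the low, middle and high levels held 81, 166 and 64 arrays, with centres at -0.245, 0.0471 and 0.209 and a common SD of 0.0526. As linear ratios to the pool these centres were 0.569, 1.11 and 1.62, so the lower step of 0.545 and the upper step of 0.504 were close in size. For Decr2 the levels held 77, 155 and 78 arrays, with centres at -0.330, 0.0394 and 0.209 and a common SD of 0.0708. The linear centres were 0.468, 1.09 and 1.62, with steps of 0.627 and 0.525. Neighbouring middle and high levels overlapped within their spread. The middle and high levels held 40 Gfer arrays and 75 Decr2 arrays placed with a probability under 90%, against 2 and 0 in the low level.

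**Figure D1:**
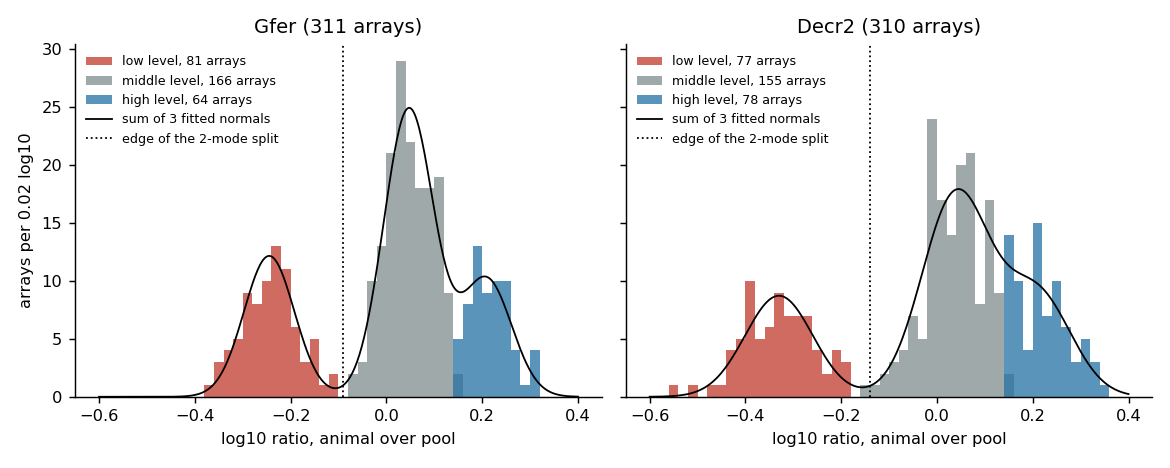
Number of arrays per 0.02 log10 (y) by log10 ratio of animal over pool (x) for Gfer and Decr2. Colours give the 3 levels, the line the sum of the 3 fitted normals and the dotted line the edge of the low mode. A small gap parts the low level from the middle one, -0.106 to -0.0726 for Gfer and -0.187 to -0.147 for Decr2. Middle and high levels run together, more so for Decr2.

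The low groups were nearly the same animals. Of the 81 Gfer-low arrays 77 were Decr2-low, 95.1% (87.8 to 98.6), against 1 of the 229 other arrays with both genes measured. Seen from Decr2, 77 of its 78 low arrays were Gfer-low, 98.7% (93.1 to 99.97). The array without a Decr2 value had a Gfer log10 ratio of 0.226.

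The genes fell on different sides in 5 arrays. Animal 157 had a Decr2 log10 ratio of -0.504 and a Gfer ratio of 0.0456, far from both edges. Animal 232 was the reverse, with Gfer at -0.250 and Decr2 at 0.0269. Animal 304 had Gfer at -0.113, near the edge, and Decr2 at 0.204. Animals 292 and 303 had Gfer at -0.147 and -0.146, and Decr2 at -0.111 and -0.00705. The probability of the Gfer low mode was 70.4% to 92.4% in these last 3 animals, and 99.94% in animal 232. The neighbouring gene Pgap6 was at -0.243 in animal 157 and 0.0647 in animal 232, and at 0.265, -0.177 and -0.190 in animals 292, 303 and 304, so its sign matched that of Decr2 in animals 157, 232 and 303 only. Genotypes were not used, so a crossover between the genes was not tested in any of the 5.

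With 3 levels, 268 of 310 arrays, 86.5%, had the same level of both genes. The levels differed by 1 step in 41 arrays and by 2 steps in 1. Of the 42 differences, 36 were between middle and high. Among the 212 arrays placed with a probability of at least 90% for both genes, a restriction added after the values were seen, 206 had the same level. Inside a shared level Pearson's r of the 2 genes was -0.0048 over 76 arrays low in both, -0.0041 over 140 in the middle and -0.117 over 52 high in both, and the last was 0.00100 without the 2 arrays farthest from the median. These values share arrays, and are a description.

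**Figure D2:**
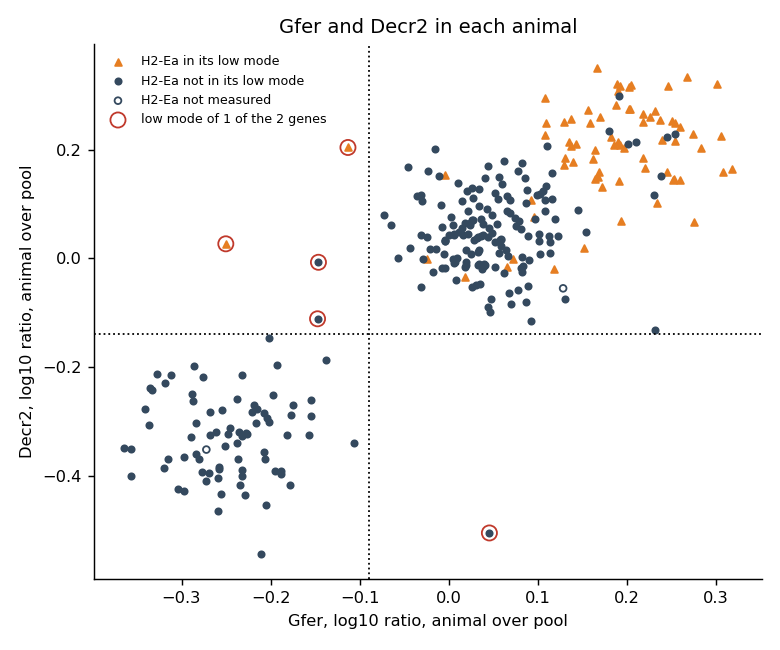
Log10 ratio of Decr2 (y) by Gfer (x), 1 point per animal, with dotted lines at the edges of the low modes. Orange triangles are arrays in the low mode of H2-Ea and red rings the 5 arrays low for 1 gene. The group low for both genes at lower left holds 0 triangles, and most triangles lie at upper right.

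Several other chromosome 17 genes with 2 modes divided the animals along similar lines. By the rule used for Gfer and Decr2 there were 10 such genes: these 2, H2-Ea, H2-Q5, C4b, Wtap, Sod2, Cldn9, Plin4 and Xdh. H2-Ea encodes the alpha chain of the class II molecule I-E, and strains of the C57BL/6 type are known not to express it. H2-Ea was low in 2 of the 80 Gfer-low arrays with a value, 2.50% (0.304 to 8.74), against 72 of 228 other arrays, 31.6% (25.6 to 38.0). The 2 were animals 232 and 304, with H2-Ea at -0.249 and -0.481, and neither was Decr2-low. Among Decr2-low arrays H2-Ea was low in 0 of 77, which allows up to 4.68%, against 73 of 230 others. The low group of Gfer and Decr2 was therefore not the low group of H2-Ea.

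The levels of H2-Ea ran the other way. H2-Ea was low in 2 of 80 arrays at the low level of Gfer, in 19 of 164 at the middle level and in 53 of 64 at the high level. It was high in 55, 19 and 1 of the same arrays. With the order of its levels turned round, H2-Ea had the level of Gfer in 234 of 308 arrays, 76.0%. The level was 1 step away in 71 arrays and 2 steps away in 3. For Decr2 the count was 234 of 307, with 70 arrays at 1 step and 3 at 2 steps. For comparison, Gfer and Decr2 shared a level in 86.5%, and H2-Ea and H2-Q5 in 86.0%. Among arrays placed with a probability of at least 90% for both genes, H2-Ea had the Gfer level in 153 of 187, 81.8%. It had the Decr2 level in 131 of 163, 80.4%, and the H2-Q5 level in 193 of 203, 95.1%. In the RefSeq gene order of GRCm38.p6, H2-Ea lies 142 places from Gfer and 108 from Decr2, counted over measured genes.

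H2-Q5, a class Ib histocompatibility gene, was low in 1 of 81 Gfer-low arrays against 75 of 230 others. With its order reversed it had the Gfer level in 240 of 311 arrays, 77.2%. Wtap encodes an adaptor of the RNA adenosine methyltransferase complex. It was low in 0 of 81 Gfer-low arrays, which allows up to 4.45%, against 75 of 230 others. With reversed order Wtap had the Gfer level in 260 of 311 arrays, 83.6%, and was never 2 steps away. It lies 69 places from Gfer, on the side away from Decr2. Among arrays placed with a probability of at least 90% for both genes, H2-Q5 had the Gfer level in 198 of 239 and Wtap in 214 of 240.

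C4b, the complement component, went with the low mode. C4b was low in 62 of 81 Gfer-low arrays, 76.5% (65.8 to 85.2), against 10 of 230 others, 4.35%. For Decr2 the counts were 62 of 78 and 10 of 232. Xdh, the purine-degrading xanthine dehydrogenase, lies far along the chromosome and was low in 42 of 81 Gfer-low arrays, 51.9%, against 36 of 230, 15.7%. Sod2 was in its high mode in 17 of 81 Gfer-low arrays against 33 of 230 others, and Cldn9 in 19 of 81 against 48 of 230. Plin4 was low in 23 of 81 against 78 of 230. For these last 3 genes the intervals of both shares overlap.

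**Figure D3:**
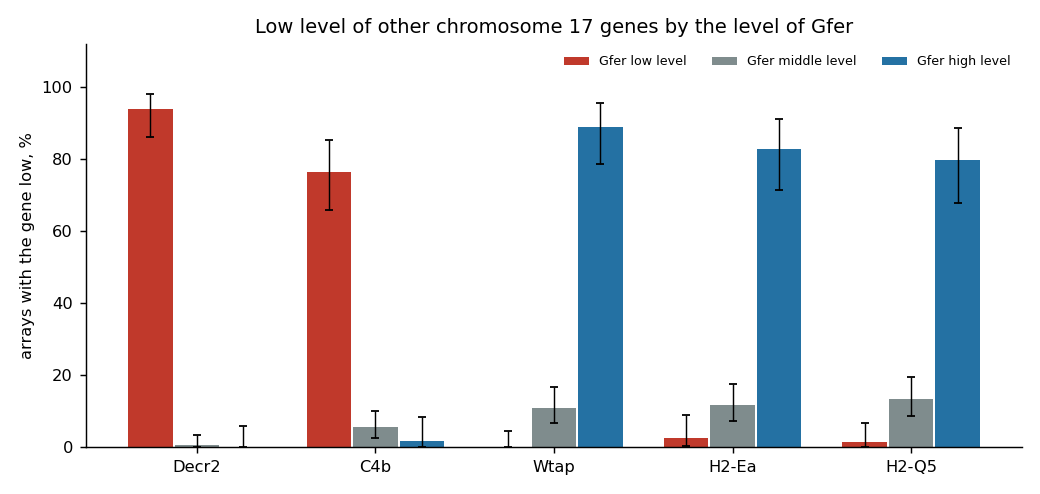
Percent of arrays (y) in the low level of each gene on the x axis (for C4b, its low mode), by the level of Gfer, with exact 95% intervals. Decr2 and C4b are low where Gfer is low. Wtap, H2-Ea and H2-Q5 are low where Gfer is high.

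Likeness was measured for every gene as the probability that an array in the low mode of Gfer or Decr2 has a higher log ratio than an array outside it, so 0.5 means no difference. Of 11386 other genes, 58 lay at or below 0.3 or at or above 0.7 for Gfer, 0.509%, and 58 for Decr2, 0.509%. On chromosome 17 these were 49 of 520 genes for each, 9.42%, and 45 genes were past the threshold for both. Elsewhere they were 9 of 10866, 0.0828%. Extreme values of other chromosome 17 genes were part of the choice of Gfer and Decr2, so nothing is read from that share. Most alike to Gfer, after Decr2 at 0.0196, were Tedc2 at 0.0785, Wtap at 0.919, C4b at 0.0985, Gnptg at 0.901, Ccnf at 0.101, H2-Q5 at 0.898, Fgd2 at 0.898, Tiam2 at 0.103 and Dvl3 at 0.103. For Decr2 the list was the same apart from H2-Q7 at 0.0811 and Zfp871 at 0.1004, which stood in place of Tiam2 and Dvl3, and Gfer itself at 0.00735.

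The neighbours of the 2 genes mostly did not split with them. There were 33 measured genes between Gfer and Decr2, and 4 were past the threshold for both: Hs3st6, Spsb3, Gnptg and Prss29. Hs3st6, a heparan sulfate sulfotransferase 3 places from Gfer, had a likeness of 0.220 to Gfer, and Gnptg, a subunit of the enzyme that tags lysosomal proteins, 0.901. The others of the 33 lay between 0.367 and 0.613. Among 5 measured genes on each side of Gfer only Hs3st6 was past the threshold, and Zfp598 at 0.659, Hagh at 0.371 and Fahd1 at 0.376 came next. Around Decr2 only Pgap6 was, at 0.168 to the Decr2 low mode. Eci1, a mitochondrial enoyl-CoA isomerase 13 places from Gfer, had likenesses of 0.505 to Gfer and 0.489 to Decr2. Likeness did not fall steadily with distance from Gfer. It was past the threshold in 7 of the 40 genes within 20 places and in 2 of the next 60 up to 50 places away, Decr2 among them. Farther away it was past in 15 of 99 up to 100, 15 of 100 up to 200, 8 of 100 up to 300 and 2 of 121 beyond.

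**Figure D4:**
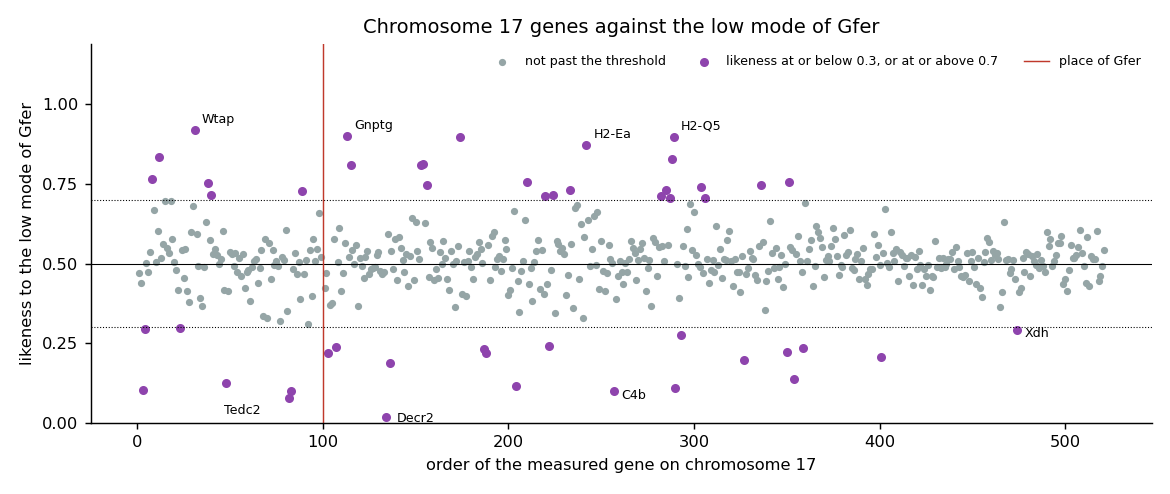
Likeness to the low mode of Gfer (y; 0.5 is no difference) by the order of measured genes on chromosome 17 (x). Purple points are past 0.3 or 0.7. They stand among neighbours near 0.5, and lie over most of the chromosome except its far end, where Xdh is the last.

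The 9 genes on other chromosomes were the same for Gfer and Decr2. Lower in the Gfer low mode were Dvl3 (chromosome 16, likeness 0.103), Nts (chromosome 10, 0.172), Anp32b (chromosome 4, 0.189), Rnf123 (chromosome 9, 0.268) and Timm13 (chromosome 10, 0.279). Higher were Slc1a3 (chromosome 15, 0.861), Rcan1 (chromosome 16, 0.781), Cx3cl1 (chromosome 8, 0.758) and Snx19 (chromosome 9, 0.713). Chromosomes are those of the annotated gene, and where the probe sequences match was not examined. Timm13, a small TIM chaperone and substrate of the disulfide relay, was the only gene past the threshold in the 5 pathway lists used here. Of 33 measured marker genes of hepatocytes and 7 other cell types (55 in the lists), 0 were past it, and they lay between 0.373 and 0.598 for Gfer and between 0.358 and 0.593 for Decr2. Of 9528 probes without a gene name, 55 were past for Gfer and 57 for Decr2.

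The share of low arrays differed little between parts of the cohort. F2 numbers are those of the sample titles, and in 1 sample the source name gives another number, also above 186. Gfer was low in 43 of 156 animals with F2 numbers up to 186 and in 38 of 155 above, and Decr2 in 44 of 156 and 34 of 154. Eif2s3y, a Y-linked gene, was high in 155 arrays and low in 156. Gfer was low in 39 of the first and 42 of the second, and Decr2 in 37 of 155 and 41 of 155 with a value. The high level of Decr2 held 32 arrays with high Eif2s3y and 46 with low Eif2s3y, and that of Gfer 35 and 29. Inside the levels the means differed by less than 1 SD. That SD is the spread of single animals, and whether the means differ was not tested. In the middle level Gfer averaged 0.0585 ± 0.0442 in 81 arrays with high Eif2s3y and 0.0375 ± 0.0501 in 85 with low Eif2s3y, and Decr2 0.0189 ± 0.0656 in 86 and 0.0523 ± 0.0516 in 69 (SD). In the low level Decr2 averaged -0.354 ± 0.0686 and -0.310 ± 0.0741 (SD, 37 and 40 arrays).

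A separate question was which genes follow Gfer or Decr2 among animals of the same mode. For each gene a slope, in log10 units per log10 unit of Gfer or Decr2, was fitted with limma with the mode as a term and p-values adjusted over all genes by Benjamini-Hochberg. With 2 modes 1675 of 11386 genes passed an adjusted p of 0.05 for Decr2, 14.7%, with 738 rising (6.48%) and 937 falling (8.23%) with it. For Gfer 2040 passed, 17.9%, with 1022 rising (8.98%) and 1018 falling (8.94%). The higher mode still holds the middle and high levels, so this slope also carries the split. Of the 50 genes of smallest p, 23 for Decr2 and 29 for Gfer were on chromosome 17. Without a test, since the choice of the genes used it, Wtap had a slope of -1.02 ± 0.0777 on Decr2 and -1.29 ± 0.0922 on Gfer, and H2-Ea -0.918 ± 0.106 and -1.51 ± 0.116 (SE). The same fit was repeated with the 3 levels as the term, added after the values were seen. Then 581 genes passed for Decr2, 5.1%, of which 280 rose (2.46%) and 301 fell (2.64%), and 3549 for Gfer, 31.2%, of which 1829 rose (16.1%) and 1720 fell (15.1%). Now 2 and 7 of the 50 were on chromosome 17.

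Genes of fatty acid oxidation rose with Decr2 inside its modes. In the peroxisomal list 10 of 17 measured genes (30 in the list) passed, 9 rising and 1 falling, and in the mitochondrial list 4 of 10 (19 in the list), all rising, beside 14.7% of all genes. The median slopes were 0.0964 and 0.0984, beside 0.00178 over all genes. With 3 levels the counts were 8 rising and 1 falling of 17, and 5 rising of 10, beside 5.1% of all genes. The median slopes were then 0.168 and 0.164, beside -0.00283.

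Hadh, the hydroxyacyl-CoA dehydrogenase of mitochondrial beta-oxidation, had a slope of 0.250 ± 0.0335 on Decr2 (SE, adjusted p = 7.22e-10 with limma) and was among the 6 of smallest p that rose. With 3 levels its slope was 0.363 ± 0.0520 (adjusted p = 1.91e-07), the smallest p of any gene that rose. Its log10 ratio ran from -0.155 to 0.163 in the 77 arrays at the low level of Decr2, from -0.134 to 0.153 at the middle level and from -0.0954 to 0.195 at the high level, so the levels overlap. Inside the middle level its median was 0.0425 in the 52 arrays with most Decr2 and -0.0232 in the 52 with least. The slopes in the single levels, low to high, were 0.329 ± 0.0994, 0.448 ± 0.0682 and 0.212 ± 0.127 (SE).

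Eci1, which moves double bonds in mitochondria, had a slope of 0.231 ± 0.0349 (adjusted p = 1.02e-07), and 0.354 ± 0.0540 with 3 levels (adjusted p = 1.31e-06). It is a chromosome 17 gene that did not follow the split. Its slopes in the single levels, low to high, were 0.351 ± 0.0837, 0.337 ± 0.0778 and 0.40 ± 0.138 (SE). Eci2, the peroxisomal counterpart, had a slope of 0.107 ± 0.0298 (adjusted p = 0.00691), and 0.261 ± 0.0451 with 3 levels (adjusted p = 3.48e-05). Read from its most variable probe the Eci2 slope was -0.185 with an adjusted p of 0.682, so its call rests on 1 of its probes. Its slopes in the single levels, low to high, were 0.354 ± 0.0640, 0.275 ± 0.0691 and 0.0582 ± 0.106 (SE), and whether levels differ was not tested.

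Several other enzymes and transporters rose as well. Abcd2, a peroxisomal fatty acid transporter, had a slope of 1.11 ± 0.169 (adjusted p = 1.24e-07), and Acot3, a peroxisomal thioesterase, 1.15 ± 0.233 (adjusted p = 1.62e-04). Crat, the carnitine acetyltransferase, had 0.301 ± 0.0533 (adjusted p = 9.97e-06) and Slc27a2, which activates very long fatty acids, 0.217 ± 0.0433 (adjusted p = 1.22e-04). Ehhadh, the peroxisomal bifunctional enzyme, had 0.377 ± 0.0823 (adjusted p = 4.91e-04). In mitochondria Acadl, a long-chain acyl-CoA dehydrogenase, and Cpt2, a carnitine palmitoyltransferase, rose with slopes of 0.149 ± 0.0345 and 0.0816 ± 0.0282 (adjusted p = 0.00111 and 0.0337). All 7 also passed with 3 levels. In the single levels, low to high, Slc27a2 had slopes of 0.403 ± 0.110, 0.388 ± 0.104 and 0.0948 ± 0.142 (SE). Crat had 0.346 ± 0.127, 0.430 ± 0.125 and 0.144 ± 0.207, and Ehhadh 0.680 ± 0.217, 0.388 ± 0.189 and 0.303 ± 0.303. Nudt7, a peroxisomal hydrolase of coenzyme A named after its value was seen, was the 1 gene that fell, with slopes of -0.538 ± 0.130 with 2 modes and -0.795 ± 0.203 with 3 levels (adjusted p = 0.00184 and 0.00908). Ech1, Abcd3 and Pecr did not pass, with slopes of 0.0324 ± 0.0697, 0.0940 ± 0.0536 and -0.0278 ± 0.0492.

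On Gfer the same lists gave other counts from the same arrays. In the peroxisomal list 1 of 17 passed, 0 rising and 1 falling, and in the mitochondrial list 2 of 10, both falling, beside 17.9% of all genes. With 3 levels they were 1 rising and 3 falling of 17, and 2 falling of 10, beside 31.2%. Hadh had a slope on Gfer of 0.0553 ± 0.0725 and Eci1 -0.0314 ± 0.0745 with 3 levels, and neither passed. Acot3 and Ehhadh fell with Gfer in that fit, with slopes of -1.46 ± 0.470 and -0.661 ± 0.165 (adjusted p = 0.0104 and 8.69e-04), and Cpt1a, which admits fatty acids to mitochondria, had -0.342 ± 0.0846 (adjusted p = 7.49e-04). With the first 5 principal components as covariates as well, Ehhadh had a slope of 0.0991, and none of Acot3, Ehhadh and Cpt1a passed. These covariates also lowered the count of all genes for Decr2, to 767 with 2 modes and 301 with 3 levels. The fatty acid oxidation slopes on Decr2 in that fit are not given here, so the 2 members are not compared under it. Over all 5 lists 6 genes passed for both members with 3 levels. Of these, 4 (Acadm, Acot3, Ehhadh and Nudt7) had slopes of opposite sign. With 2 modes 3 genes passed for both (Acot3, Pex2 and Timm13), and 1 of them, Acot3, had slopes of opposite sign. The same counts over all genes were not made, so these have no background. Whether the slopes on Decr2 and Gfer differ was not tested.

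**Figure D5:**
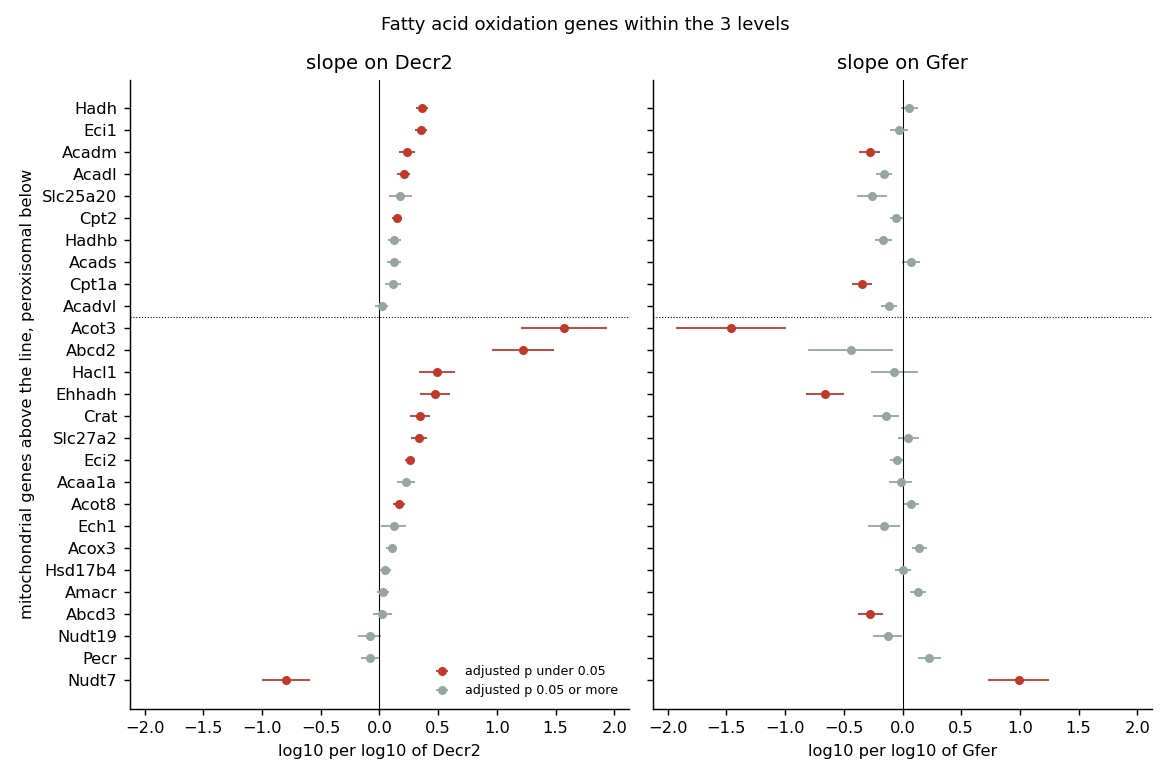
Slope (x, log10 per log10, ± SE) of each measured fatty acid oxidation gene on Decr2 (left) and Gfer (right) with the 3 levels as a term. Red points passed an adjusted p of 0.05. On Decr2, 13 of 14 red points lie above 0. On Gfer, 5 of 6 lie below 0.

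In the disulfide relay list, 5 of 13 measured genes (34 in the list) passed for Gfer, 3 rising and 2 falling, 38.5% beside 17.9% of all genes. Timm8b, Timm22 and Timm13, all subunits of the TIM import machinery, rose with slopes of 0.198 ± 0.0350, 0.135 ± 0.0267 and 0.175 ± 0.0305 (adjusted p = 6.31e-06, 6.03e-05 and 4.59e-06). Timm8a1 fell by 0.164 ± 0.0428 (adjusted p = 0.00292), and Aifm1, the partner of CHCHD4 in import, fell by 0.140 ± 0.0423 (adjusted p = 0.0106). Neither passed in the 2-mode fit with the first 5 principal components as covariates. With 3 levels the counts were again 3 rising and 2 falling, beside 31.2% of all genes, so the share was close to the background. Timm13 then had a slope of 0.123 ± 0.0502 (SE, adjusted p = 0.0487), just past the threshold. It also differed between the modes of Gfer (likeness 0.279), so its 2-mode slope carries the split. Its slopes in the single levels, low to high, were 0.123 ± 0.0696, 0.106 ± 0.0715 and 0.178 ± 0.152 (SE). For Decr2 3 rose and 1 fell of 13, 30.8% beside 14.7% of all genes. With 3 levels the gene that fell, Timm9, did not pass (adjusted p = 0.357), which left 3 rising of 13 beside 5.1%. Chchd4 and Cycs, the direct partners of the protein, were not analysed here. In the iron-sulfur cluster list 1 of 6 passed for Gfer, 16.7% beside 17.9% of all genes (Nubp1, slope 0.121 ± 0.0283, adjusted p = 7.81e-04; not past the threshold with the principal components), and 1 of 6 for Decr2, beside 14.7% (Nubp2, -0.184 ± 0.0455, adjusted p = 0.00239). With 3 levels Nubp2 no longer passed for Decr2 (adjusted p = 0.128), and Nubp1 and Nubp2 passed for Gfer.

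Of the peroxisome biogenesis genes, 4 of 14 measured (19 in the list) passed for Gfer, 28.6% beside 17.9% of all genes, with Pxmp4 rising (slope 0.151 ± 0.0452) and Pex3, Pex2 and Pex7 falling (-0.218 ± 0.0399, -0.210 ± 0.0545 and -0.107 ± 0.0332; SE). With the first 5 principal components as covariates Pex3 passed and Pxmp4, Pex2 and Pex7 did not. With 3 levels 2 rose and 6 fell of 14, beside 31.2%. For Decr2 3 of 14 rose and 2 fell, 35.7% beside 14.7% of all genes. Pex11a, which promotes peroxisome division, rose with a slope of 0.429 ± 0.0795 (adjusted p = 2.77e-05), and Pex6 and Pex19, both needed to build peroxisomes, with 0.113 ± 0.0351 and 0.0822 ± 0.0271 (adjusted p = 0.0164 and 0.0252). Pex11g fell (slope -0.0998 ± 0.0336, adjusted p = 0.0288), and so did Pex2 (-0.127 ± 0.0463, adjusted p = 0.0470). With the principal components the Pex11g slope was 0.0193, and neither it nor Pex6 passed. With 3 levels 3 of 14 passed for Decr2, all rising (Pex6, Pex11a and Pex16), beside 5.1%, and Pex19, Pex11g and Pex2 did not.

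Of 33 measured markers of liver and other cell types, 5 rose and 3 fell with Decr2, beside 14.7% of all genes called, and 3 rose and 4 fell with Gfer, beside 17.9%. With 3 levels 3 rose and 1 fell with Decr2, beside 5.1%, and 4 rose and 9 fell with Gfer, beside 31.2%. Of 8 macrophage markers, 4 rose with Decr2 and 0 fell (Adgre1, Csf1r, Clec4f and C1qa), with a median slope of 0.265, and with 3 levels Adgre1 did not pass. With Gfer 0 of the 8 rose and 3 fell (Adgre1, Ctss and Vsig4), with a median slope of -0.267, and with 3 levels these and Clec4f fell. The mean log10 ratio of the 8 ran from -0.253 to 0.346 at the low level of Decr2, from -0.311 to 0.265 at the middle level and from -0.277 to 0.260 at the high level. Its median was -0.00449 in the third of low-level arrays with most Decr2 and -0.0848 in the third with least, -0.0220 and -0.104 in those of the middle level, and -0.0182 and -0.00883 in those of the high level, where the order turned. A ratio to a pool has no zero, so absence of a marker cannot be read. In whole liver, fewer cells of a type and less RNA per cell cannot be told apart. The part of macrophages or of any other cell type in the slopes was not tested.

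With the Y-linked Eif2s3y and Kdm5d as covariates, 7 of 17 peroxisomal genes and 2 of 10 mitochondrial genes rose with Decr2, beside 7.02% of all genes, with Hsd17b4 and Acox3 newly past the threshold, while Ehhadh, Eci2, Hacl1, Acot8, Nudt7, Acadl and Cpt2 no longer passed. The slope of Abcd2 on Decr2 was then 0.531 and passed. With 3 levels as well, 2 of 17 and 2 of 10 did (Eci2, Slc27a2, Hadh and Eci1), beside 1.61%. In 3-level fits to parts of the cohort, 0 of 11386 genes passed for Decr2 in limma among animals with F2 numbers up to 186 (1568 at an unadjusted p under 0.05). Of the 27 fatty acid oxidation genes, 12 had an unadjusted p under 0.05 there. Among animals above 186, 42 genes passed, and these held Crat, Eci2, Hadh, Eci1 and Acadl.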

How the data were processed

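Per the file headers and labels, the authors deposited 1 log10 ratio per probe and animal, limited to -2 and 2; how they normalised these values is not given in the sources used here. Base and direction were read from the values. For a pool of all samples the mean linear ratio should be near 1. Over probes with an SD above 0.15, 0.2, 0.3 and 0.4 its median was 1.02, 0.999, 0.979 and 0.948 for base 10 and animal over pool, against 1.21 to 3.90 for pool over animal; bases 2 and e gave 0.847 to 0.983 for animal over pool. The slope of a probe's mean on its variance, also tried, did not settle the base, so fold values rest on base 10 as the reading nearest to 1. Of 48205 array pairs 350 had r under -0.3 (lowest -0.478), and no sign was turned, as both dyes are labelled.

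Of 23388 probes 13645 name 1 gene, 48 several and 9695 none. Each gene was read from its probe with fewest missing values, measured on at least 95% of arrays. A gene had 2 modes when 2 normals beat 1 normal and a Student t by a Bayesian information criterion of 10, the smaller mode held at least a weight of 0.1, and Ashman's D reached 2. Intervals of shares are Clopper-Pearson, for counting error only, and the number of arrays limits the precision. Slopes used limma 3.58.1 in R 4.3.3; the rest used Python 3.11.15, scipy 1.17.1 and numpy 2.4.6. Code was tested on simulated data.

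Gfer, Decr2, the lists and the tests were chosen with earlier results of these data known. Genes named are the members, H2-Ea, H2-Q5, C4b, 5 neighbours on each side, the 10 most alike, the 5 most alike elsewhere, chromosome 17 genes with 2 modes, the 6 of smallest p in each direction, up to 4 passing genes per list and 11 pathway genes in any case. Other named genes, the motifs and the windows of gene order were chosen after values were seen. p-values measure the spread between animals.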

Additional observations from a re-analysis of the deposited data

How the results depend on the processing

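No paired analysis was possible because all arrays form 1 group. The shares of low arrays, the shared low mode and the distances stayed within their limits in the runs where they were computed. These were separate SDs, widest gap, 3 normals, centring, fewer arrays, and F2 numbers up to or above 186. The chromosome 17 likeness counts and the overlaps with H2-Ea were not computed with separate SDs, 3 normals or without arrays with pancreas or muscle markers. They stayed within their limits with the widest gap, centring, the most variable probe and without the arrays of largest SD. The same held for F2 numbers up to or above 186, except that no Gfer-low array was H2-Ea-low (0%) up to 186. Another probe could not be tried, as each gene has 1.

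Counts of genes that follow the members moved most, and the cause was not tested. The parts of the cohort also hold fewer arrays, and the part this plays was not tested. For Gfer, beside 2040, they were 424 up to and 468 above F2 number 186, 658 with 5 principal components, 3549 with 3 levels, 3341 with 3 levels and the Y-linked genes, 892 with 3 levels and 5 components, and 1105 with 3 levels above 186. For Decr2, beside 1675, they were 799 with the Y-linked genes, 100 up to and 674 above 186, 767 with 5 components, 581 with 3 levels, 183 with the Y-linked genes too, 301 with 5 components too, and 0 up to and 42 above 186.

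Of 942 single-gene slopes under alternatives, 731 kept direction and call, 183 lost the call, 6 gained it and 22 changed sign. On Gfer these were Timm13 (-0.00390, 3 levels up to 186), Eci1 (-0.0314 with 3 levels, -0.0198 above 186), Eci2 (0.0357, 3 levels up to 186), Ehhadh (0.0913 with 5 components, 0.0991 with 3 levels too), Ech1 (0.0161) and Abcd3 (0.00940), both with 5 components. On Decr2 they were Timm9 (0.00147 with the Y-linked genes, 0.0283 with 5 components, 0.0453 and 0.0663 with 3 levels too), Pex11g (0.0193 and 0.000226 with 5 components), Aifm1 (0.00374, 0.0203, 0.0182 and 0.0878), Eci2 (-0.185, most variable probe), Pecr (0.00585), Ech1 (-0.0532) and Abcd3 (-0.0806) in parts of the cohort.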
